A study of Mus musculus with 28 samples.

Results

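The effect of lactate on pancreatic macrophages was compared between day 3 and day 1 of recovery from experimental pancreatitis. The comparison used 20 of the 28 RNA-seq libraries of the series, chosen by their titles as those that name a day together with lactate or PBS. They were 4 D3 AP+Lac, 4 D3 AP+PBS, 6 D1 AP+Lac and 6 D1 AP+PBS libraries. Within a day, the lactate effect of a gene is the mean of the AP+Lac libraries minus the mean of the AP+PBS libraries on the log2(FPKM + 1) scale. FPKM are a gene's fragments scaled to the length of its transcript and to the depth of the library. The day difference is the day 3 lactate effect minus the day 1 lactate effect, so a negative value means that lactate lowered a gene more, or raised it less, at day 3.

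All 4 groups came from wild-type C57BL/6J mice with pancreatitis induced by caerulein, a peptide that overstimulates the enzyme-secreting acinar cells. Macrophages were sorted by flow cytometry from the pancreas on day 3 or day 1, and the mice had received lactate or PBS as the titles state. The sources used here do not give the dose and route of lactate, the age and sex of the mice or any pooling. The other libraries, 5 labelled D0 and 3 labelled NC, enter here through the shared estimate of the spread and as levels beside single genes.

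Interferons signal through receptors and STAT proteins to switch on a shared set of antiviral genes, the interferon-stimulated genes, many of which carry a response element with repeated GAAA blocks in their promoters. Interferon gamma also induces families of defence GTPases and the genes that load peptides onto MHC class I. In an injured pancreas, macrophages of resident type, rich in scavenger receptors and complement proteins, are joined by cells derived from Ly6C-high blood monocytes.

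The libraries held 33273303 to 41060490 fragments each, and 11960 genes passed the filter of 1 FPKM or more in 3 libraries or more. Whether libraries of a group stem from separate mice is not stated in the labels, so p-values measure only the spread between libraries. Preparation batches are not stated either, so a batch that follows the day cannot be told apart from it. A batch shift shared by both groups of a day would largely cancel from the day difference. One uneven over AP+Lac and AP+PBS libraries within a day would not, and could not be told apart from the lactate effect. RNA of the macrophage marker Csf1r, the receptor for macrophage colony-stimulating factor, was between 221 and 730 FPKM in each of the 20 libraries. Markers of other cell types were detected as well. Cd3e, a T cell receptor component, lay between 12.5 and 54.3 FPKM, and Prss2, an acinar trypsinogen, between 54.8 and 1983 FPKM. In such bulk libraries, fewer cells of a type and less RNA per cell cannot be told apart.

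A few libraries stood apart from their group. D1 AP+PBS 5 had interferon-stimulated genes at the level of the D1 AP+Lac libraries, with a mean of 7.20 on the log2(FPKM + 1) scale over the 25 listed genes tested. D1 AP+PBS 6 had a mean of 5.82, and the other 4 D1 AP+PBS libraries lay between 3.83 and 4.39. At day 3, D3 AP+Lac 3 had an interferon-stimulated mean of 5.89, against 5.03, 4.16 and 4.10 in the rest of its group. That lay within the D3 AP+PBS range of 5.54 to 6.77. Its mean of the interferon gamma-induced GTPases, 6.34, was the highest of the day 3 libraries. D3 AP+PBS 2 had the highest mean of the acinar markers, 8.79, and D3 AP+Lac 4 the highest mean of the mast cell markers, 2.34. Libraries 5 and 6 of both day 1 groups also stood apart together. Their fibroblast marker means were 1.86 to 2.06, against 2.98 to 4.19 in the other day 1 libraries of both treatments. For B and plasma cell markers the means were 3.32 to 4.11, against 4.32 to 5.63. The cause was not tested. Whether D1 AP+PBS 5 and D1 AP+PBS 6 carry the right label cannot be settled from the files, and each day 1 effect given here includes both as labelled. Values without a library follow where leaving it out changes a call.

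Of the 11960 genes, 1280 had a day difference past an adjusted p of 0.05 (limma, Benjamini-Hochberg over all genes), which is 10.7%. The day difference was positive for 569 of them (4.76% of genes tested) and negative for 711 (5.94%). On its own, the day 1 lactate effect was called for 1162 genes (9.72%) and the day 3 effect for 45 (0.376%). By sign, the lactate effects of most called genes pointed in opposite directions on the 2 days. Choosing genes by a large difference between the 2 effects favours opposite signs, so the counts that follow carry no test. Of the 711 genes with a negative difference, 709 had a positive day 1 effect and a negative day 3 effect, and of the 569 with a positive difference, 561 had the reverse. The negative differences were the larger ones, with 127 genes below -2 against 6 genes above 2, and medians of -1.10 and 0.69. Both effects were called on their own for only 4 of the 1280 genes, 3 with a negative difference and 1 with a positive one. For 422 of the 711 and 269 of the 569, the day 1 effect alone was called. Neither effect was called on its own for 273 of the 711 and 278 of the 569.

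**Figure D1:**
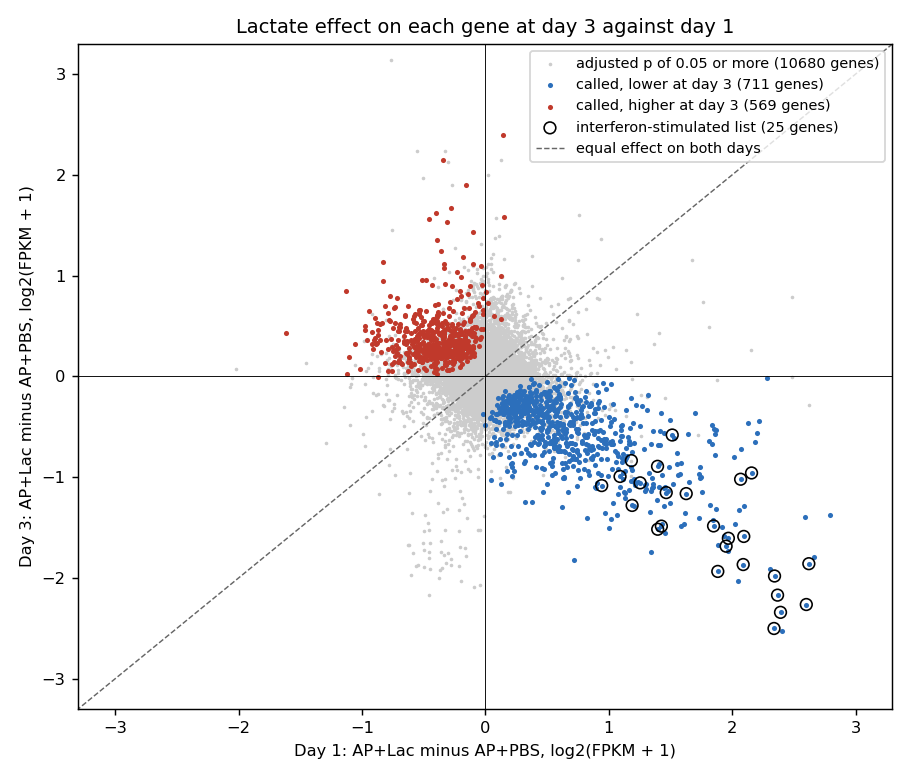
Each point is 1 of 11960 genes, with the day 1 lactate effect on the horizontal axis and the day 3 lactate effect on the vertical axis, both as AP+Lac minus AP+PBS on the log2(FPKM + 1) scale. The 711 genes called with a negative difference (blue) lie at the lower right and the 569 with a positive one (red) at the upper left, and the 25 interferon-stimulated genes (rings) lie at the lower right end.

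The separation of libraries was incomplete. All 4 D3 AP+Lac libraries lay outside the range of the D3 AP+PBS libraries for 454 of the 1280 genes, against 7.67% of all genes tested. At day 1 this held for 17 of the 1280 genes, against 0.41% of all genes. Without D1 AP+PBS 5 it held for 432, against 7.23% of all genes. No gene had groups apart in opposite directions on both days (0 of 11960). These shares describe genes that the same libraries chose and carry no test.

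Promoters of genes from both ends of the comparison are shown because the largest negative differences fell in interferon-stimulated genes. The windows are RefSeq promoters of build GRCm38.p6, from 250 bases before to 50 after the annotated start, written 5′ to 3′ along the gene. Capitals mark the core of the interferon response element, searched as GAAA followed by any 2 bases and GAAA again, or as TTTC followed by any 2 bases and TTTC where it lies on the other strand, with overlapping matches counted. Isg15 lies at chr4:156200769-156201068 (minus strand), Ifit3 at chr19:34583279-34583578 (plus), Cxcl10 at chr5:92348840-92349139 (minus) and Stab1 at chr14:31168592-31168891 (minus).
Isg15: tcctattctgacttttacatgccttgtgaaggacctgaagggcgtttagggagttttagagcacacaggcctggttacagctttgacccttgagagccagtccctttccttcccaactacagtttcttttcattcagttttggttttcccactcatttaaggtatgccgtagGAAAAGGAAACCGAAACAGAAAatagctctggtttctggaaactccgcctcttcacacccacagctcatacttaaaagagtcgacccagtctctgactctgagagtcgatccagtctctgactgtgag
Ifit3: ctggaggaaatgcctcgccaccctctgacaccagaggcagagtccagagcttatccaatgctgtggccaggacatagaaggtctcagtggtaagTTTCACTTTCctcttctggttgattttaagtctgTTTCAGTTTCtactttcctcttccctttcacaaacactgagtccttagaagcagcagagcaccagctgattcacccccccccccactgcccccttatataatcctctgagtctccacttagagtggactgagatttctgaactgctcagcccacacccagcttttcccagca
Cxcl10: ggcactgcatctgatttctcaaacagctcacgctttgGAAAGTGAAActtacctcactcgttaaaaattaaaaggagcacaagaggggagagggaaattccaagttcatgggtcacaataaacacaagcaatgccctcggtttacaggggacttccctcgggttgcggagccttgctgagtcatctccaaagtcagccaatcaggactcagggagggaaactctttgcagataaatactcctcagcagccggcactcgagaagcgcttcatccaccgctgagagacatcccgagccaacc
Stab1: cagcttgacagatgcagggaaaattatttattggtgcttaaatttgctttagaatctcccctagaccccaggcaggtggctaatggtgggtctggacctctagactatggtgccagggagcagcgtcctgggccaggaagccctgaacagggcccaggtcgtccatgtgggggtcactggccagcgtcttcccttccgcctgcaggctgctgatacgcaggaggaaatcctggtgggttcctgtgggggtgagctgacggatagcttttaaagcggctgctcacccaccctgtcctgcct
The Isg15 window held 3 overlapping copies between 78 and 57 bases before the start. The Ifit3 window held 2 copies, which begin 156 and 122 bases before the start, and the Cxcl10 window 1 copy that begins 213 bases before it. The Stab1 window had no match to these letters. The printed windows do not stand for that whole end of the comparison. Of the 15 named genes with the most negative differences, 12 matched a window and 9 of those held the motif, while Irf7, Ifit2 and Slfn4 had none, nor did Ly6c2. The motif occurred in 1131 of 32851 promoter windows in the RefSeq table (3.44%) and in 401 of the 9615 genes tested that matched a window by gene ID (4.17%). It occurred in 12 of 19 matched interferon-stimulated genes, in 97 of 589 matched genes with a negative difference (16.5%) and in 12 of 454 with a positive one (2.64%). A match is a description of the letters and not a bound site.

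Interferon-stimulated genes stood at the lower end of the comparison. Of 25 listed genes tested, 24 were called with a negative day difference, where 5.94% of all genes were, and none with a positive one. The list median was -3.12, against 0.01 over all genes, with a median lactate effect of -1.49 at day 3 and 1.88 at day 1. The one member short of the threshold was Ifi204, a DNA sensor of the mouse p200 family, at -2.02 (adjusted p = 0.0507).

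Isg15, a ubiquitin-like protein attached to other proteins after interferon exposure, had 55.2, 26.2, 144 and 28.3 FPKM in the D3 AP+Lac libraries. The D3 AP+PBS libraries had 319, 147, 193 and 375 FPKM. In D1 AP+Lac libraries it ran from 149 to 1100 FPKM with a median of 417, and in D1 AP+PBS libraries from 20.9 to 656 FPKM with a median of 36.5. Every D3 AP+Lac library was below every D3 AP+PBS library, whereas at day 1 the groups overlapped through D1 AP+PBS 5 and D1 AP+PBS 6, at 656 and 164 FPKM. The day difference of Isg15 was -4.87 on the log2 scale (SE 0.99, adjusted p = 0.00606), made of a day 3 effect of -2.26 (adjusted p = 0.139) and a day 1 effect of 2.60 (adjusted p = 0.0144). D0 libraries had 183 to 647 FPKM of Isg15 and NC libraries a median of 39.1 FPKM.

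Ifit3, of the family that binds viral RNA, had 24.0, 12.8, 49.7 and 12.3 FPKM in D3 AP+Lac libraries. The D3 AP+PBS libraries had 177, 63.1, 97.9 and 135 FPKM. D1 AP+Lac libraries ran from 40.3 to 429 FPKM (median 168) and D1 AP+PBS libraries from 8.18 to 217 FPKM (median 13.5). The order of the groups was that of Isg15, with no overlap at day 3 and an overlap at day 1, and the day difference was -4.73 (SE 1.03, adjusted p = 0.00806). Most of the list did overlap at day 3. Groups were apart at day 3 for 5 of the 25 listed genes, against 7.67% of all genes tested. At day 1 they were apart for 0 of 25, against 0.41% of all genes.

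Cxcl10, a chemokine that draws activated T and NK cells, had 81.5, 34.7, 240 and 22.1 FPKM in D3 AP+Lac libraries. The D3 AP+PBS libraries had 222, 90.0, 126 and 288 FPKM, so the day 3 groups overlapped. On day 1, AP+Lac libraries ran from 203 to 826 FPKM (median 285) and D1 AP+PBS libraries from 14.4 to 550 FPKM (median 25.7). The day difference was -4.17 (SE 1.15, adjusted p = 0.0231). It was not called without D3 AP+Lac 2 (-3.89, adjusted p = 0.0583) or without D3 AP+Lac 4 (-3.68, adjusted p = 0.052).

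Regulators of the response were called in the same direction. Irf7, the transcription factor that amplifies type I interferon signalling, had a day difference of -3.96 (SE 0.85, adjusted p = 0.00794), and Usp18, which removes Isg15 from proteins and dampens signalling, had -3.82 (SE 0.77, adjusted p = 0.00572). Rsad2 (viperin, an antiviral enzyme) was at -4.54, Ifit2 at -4.48 and Ifit1 at -4.32. Xaf1, an interferon-induced gene linked to apoptosis, was at -2.91. Outside the list, Ly6i of the Ly6 family was at -4.93, Slfn4 of the Schlafen family at -4.45, Ifit1bl1 at -4.22 and Ifi213 of the p200 family at -3.70. Ifit3 and Ifit3b (-4.84), Ifit1 and Ifit1bl1, Tgtp1 and Tgtp2, and Ly6i and Ly6c2 are close copies, and how fragments were divided between such copies is not known.

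**Figure D2:**
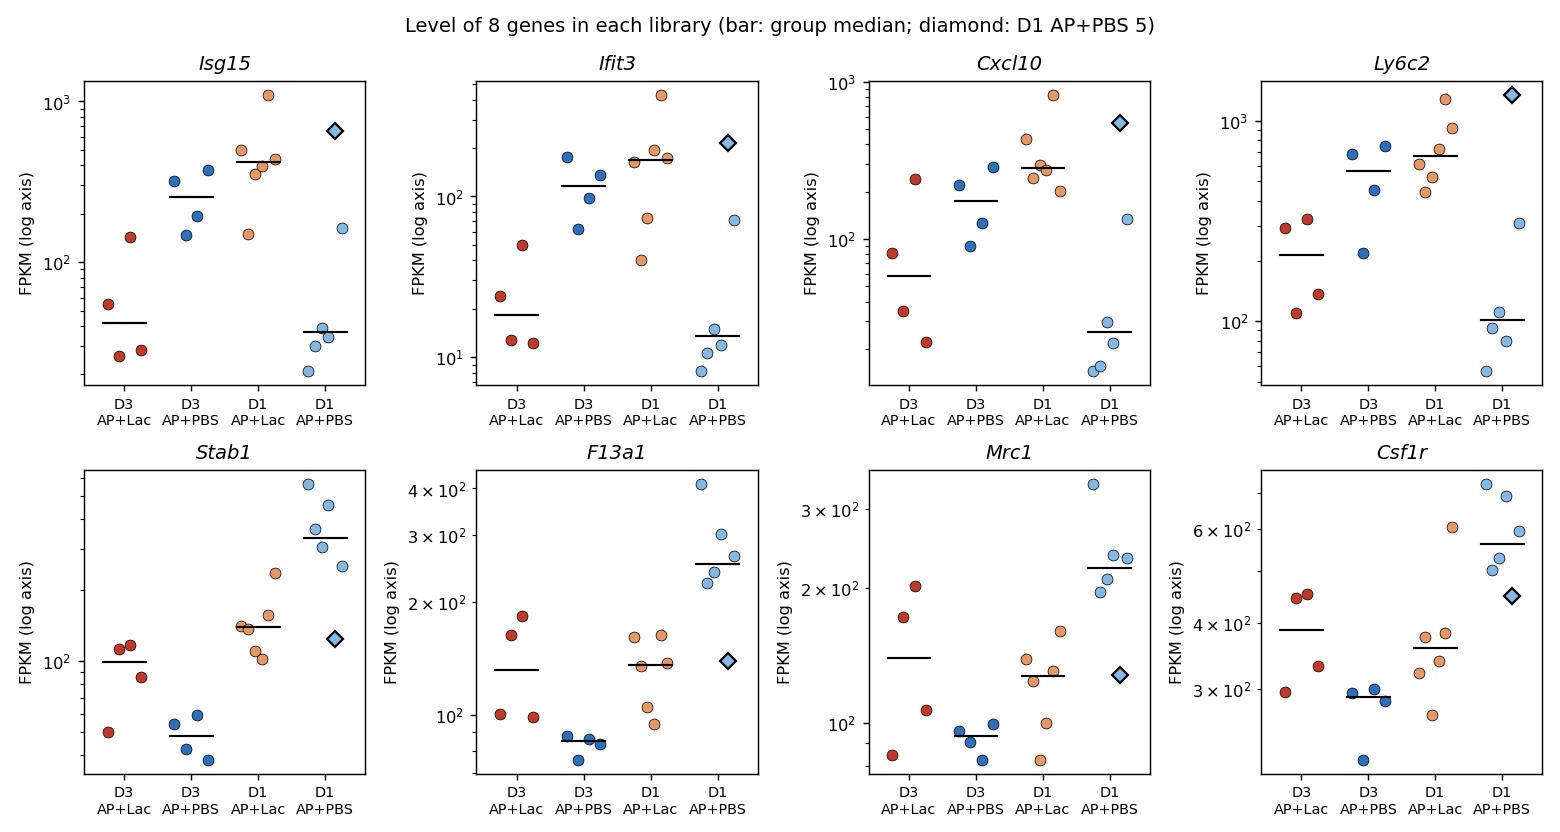
FPKM of 8 genes in each of the 20 libraries on a log axis, by group, with a bar at the group median and a diamond for D1 AP+PBS 5. For Isg15, Ifit3, Cxcl10 and Ly6c2 the D1 AP+PBS median is the lowest of the 4 groups, and for Stab1, F13a1, Mrc1 and Csf1r it is the highest.

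The GTPases induced by interferon gamma followed the same direction, with 10 of 15 tested called negative, none called positive and a list median of -2.40. Over all genes tested, 5.94% were called negative. Tgtp1, a GTPase that attacks the vacuoles of intracellular pathogens, had 17.4, 4.30, 22.1 and 5.64 FPKM in D3 AP+Lac libraries and 46.3, 16.1, 24.7 and 33.7 FPKM in D3 AP+PBS libraries. D1 AP+Lac libraries ran from 25.1 to 68.8 FPKM (median 47.4) and D1 AP+PBS libraries from 1.36 to 70.8 FPKM (median 3.86). The groups overlapped on both days, and the day difference was -3.99 (SE 0.89, adjusted p = 0.00864). Gbp4 (-2.84), Gbp9 (-2.64) and Igtp (-2.40) were also called, as was Gbp10 (-4.08), which the list did not hold. The day 3 part of this list was small, with a median lactate effect of -0.44 at day 3 and 1.87 at day 1.

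MHC class I genes were called in the same direction, and MHC class II genes were not called. Of 15 class I and peptide-loading genes, 10 were called negative, where 5.94% of all genes were, with a list median of -0.90. H2-Q4, a class I heavy chain of the Qa family, had 218, 206, 225 and 205 FPKM in D3 AP+Lac libraries and 394, 303, 352 and 320 FPKM in D3 AP+PBS libraries, with no overlap. Its D1 AP+Lac libraries ran from 228 to 365 FPKM and its D1 AP+PBS libraries from 118 to 389 FPKM, where D1 AP+PBS 5 was the highest, and the day difference was -1.40 (SE 0.29, adjusted p = 0.00774). H2-T23 was at -1.15, Psmb9, an immunoproteasome subunit, at -0.99 and Tap2, a chain of the peptide transporter, at -0.76. Of 10 class II genes none was called by limma and 0 passed an unadjusted 0.05, with a median of 0.11. Cd74, the class II invariant chain, was at 0.22 (adjusted p = 0.614).

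Monocyte genes split. Of 21 listed genes tested, with a median of -0.16, 4 were called negative and 3 positive, where 5.94% and 4.76% of all genes were. Ly6c2, the Ly6C antigen of inflammatory monocytes, had 292, 110, 325 and 136 FPKM in D3 AP+Lac libraries and 681, 219, 451 and 750 FPKM in D3 AP+PBS libraries. D1 AP+Lac libraries ran from 441 to 1290 FPKM (median 668) and D1 AP+PBS libraries from 56.3 to 1352 FPKM (median 101). Groups overlapped on both days, and the day difference was -3.38 (SE 0.84, adjusted p = 0.0134). In D0 libraries Ly6c2 stood at 953 to 1408 FPKM and in NC libraries at 40.3 to 106 FPKM. Plac8 (-2.91) and Ms4a4c (-2.89) were negative as well. Fn1, which encodes fibronectin, was positive at 1.77, Cd14, a lipopolysaccharide co-receptor, at 1.38 and Itgam, the integrin CD11b, at 0.96. Fn1 was not called without D3 AP+Lac 1 (1.52, adjusted p = 0.0513) or D3 AP+PBS 2 (1.49, adjusted p = 0.0561), nor was Itgam without D3 AP+Lac 2, D3 AP+Lac 3, D3 AP+PBS 2 or D1 AP+PBS 1 (adjusted p up to 0.0726). Ccr2, the chemokine receptor that brings monocytes out of the marrow, was at 0.02 (adjusted p = 0.974).

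Among the inflammatory and chemokine genes, each called member was negative. Over all genes tested, 5.94% were called negative and 4.76% positive. From the inflammatory list of 24 genes tested, with a median of -0.36, Il12b (-1.65), Cd40 (-1.69), Ccl5 (-1.95) and Cxcl10 were called. From the list of 21 chemokines, with a median of 0.39, Ccl5, Cxcl10, Ccl22 and Ccl17 were called. Il1rn, the interleukin 1 receptor antagonist, had 13.3, 8.96, 37.2 and 9.89 FPKM in D3 AP+Lac libraries and 73.2, 22.2, 28.4 and 72.0 FPKM in D3 AP+PBS libraries. In D1 AP+Lac libraries it ran from 30.3 to 105 FPKM (median 73.0) and in D1 AP+PBS libraries from 6.39 to 130 FPKM (median 12.2). The ranges overlapped on both days and the day difference was -3.40 (SE 0.80, adjusted p = 0.0104). Il1b (0.12), Tnf (0.29) and Nos2 (-0.52) did not pass the test, nor did Cxcl9, an interferon gamma-induced chemokine, at -2.91 (adjusted p = 0.0677). Cxcl9 was called without D1 AP+PBS 5 (-3.62, adjusted p = 0.00195) or without D3 AP+Lac 3 (-3.37, adjusted p = 0.0427). Of the 28 genes listed as reparative, with a median of 0.13, 2 were called positive, Mrc1 and Fn1, and 4 negative, Ccl22, Il1rn, Ccl17 and Socs1. Ccl22 (-3.08) and Ccl17 (-1.63) are chemokines that dendritic cells also make, and Socs1 (-2.06) is an interferon-induced inhibitor of cytokine signalling.

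Markers of dendritic and NK cells were called in the same direction as the interferon genes. Of 16 dendritic cell markers tested, 6 were called negative, where 5.94% of all genes were, and none positive, with a median of -0.70. Fscn1, an actin-bundling protein of mature dendritic cells, had 64.1, 26.5, 34.0 and 56.2 FPKM in D3 AP+Lac libraries and 139, 131, 150 and 73.9 FPKM in D3 AP+PBS libraries. At day 1 it ran from 59.1 to 202 FPKM in AP+Lac libraries (median 147) and from 18.1 to 151 FPKM in AP+PBS libraries (median 40.2). Day 3 groups did not overlap and day 1 groups did. The day difference was -3.08 (SE 0.63, adjusted p = 0.00663). Ccr7, which guides mature dendritic cells to lymph nodes, was at -2.26, Dpp4 at -1.59 and Batf3, a factor of cross-presenting dendritic cells, at -0.84.

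Of 18 T and NK cell markers tested, 8 were called negative, where 5.94% of all genes were, and none positive, with a median of -1.15. Gzma, a granule protease of cytotoxic cells, had 57.4, 72.7, 70.3 and 46.3 FPKM in D3 AP+Lac libraries and 218, 126, 117 and 176 FPKM in D3 AP+PBS libraries, with no overlap. On day 1, AP+Lac libraries ran from 63.7 to 187 FPKM (median 121) and D1 AP+PBS libraries from 8.97 to 96.3 FPKM (median 23.9). The day difference was -3.39 (SE 0.58, adjusted p = 0.0046). Klre1 (-1.77), Ncr1, the NK receptor NKp46 (-1.75), and Prf1, the pore former perforin (-1.65), were called, whereas Cd3e was at -0.78 (adjusted p = 0.388). The endothelial genes Kdr (-2.25) and Esam (-1.48) were called among 11 tested, with a list median of -0.57.

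On average, both marker lists were lower in D3 AP+Lac than in D3 AP+PBS libraries and higher in D1 AP+Lac than in D1 AP+PBS libraries, as was the interferon-stimulated list. In D3 AP+Lac and D1 AP+Lac libraries the means were 4.80 and 6.72 for the interferon-stimulated list, 4.21 and 4.09 for the dendritic cell markers and 4.44 and 4.37 for the T and NK cell markers. In D3 AP+PBS and D1 AP+PBS libraries they were 6.29 and 4.91, 4.61 and 3.53, and 4.88 and 3.51, in the same order. Whether the share of these cells contributes to the interferon differences was not tested. The mean of the dendritic cell markers was 3.94 to 4.48 in D3 AP+Lac libraries, 4.37 to 4.73 in D3 AP+PBS, 3.91 to 4.26 in D1 AP+Lac and 3.18 to 3.79 in D1 AP+PBS. For T and NK cell markers the ranges were 4.07 to 4.75 in D3 AP+Lac libraries, 4.54 to 5.10 in D3 AP+PBS, 3.48 to 4.87 in D1 AP+Lac and 2.80 to 4.24 in D1 AP+PBS. No marker of either list was at 0 in all 20 libraries. With the dendritic cell marker mean as a covariate, 55 genes were called and 19 of the 1280 kept their call, 97 of the 1280 changed sign, and no interferon-stimulated gene was called (0 of 25, with 25 past an unadjusted 0.05). The median of the interferon-stimulated list was then -3.90, and Isg15 was at -5.73 (SE 1.55, adjusted p = 0.0524), over alternatives whose adjusted p for Isg15 ran from 1.34e-05 to 0.0524. The T and NK cell markers changed direction under the dendritic cell marker covariate, to a median of 1.07 with 11 of 18 positive, 1 called positive and 0 negative. None of the GTPases or MHC class I genes was called under it (0 of 15 each, with 12 and 6 past an unadjusted 0.05), at medians of -2.89 and -0.75. With a lymphocyte marker covariate, 25 of the 25 interferon-stimulated genes were called at a median of -3.33.

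**Figure D3:**
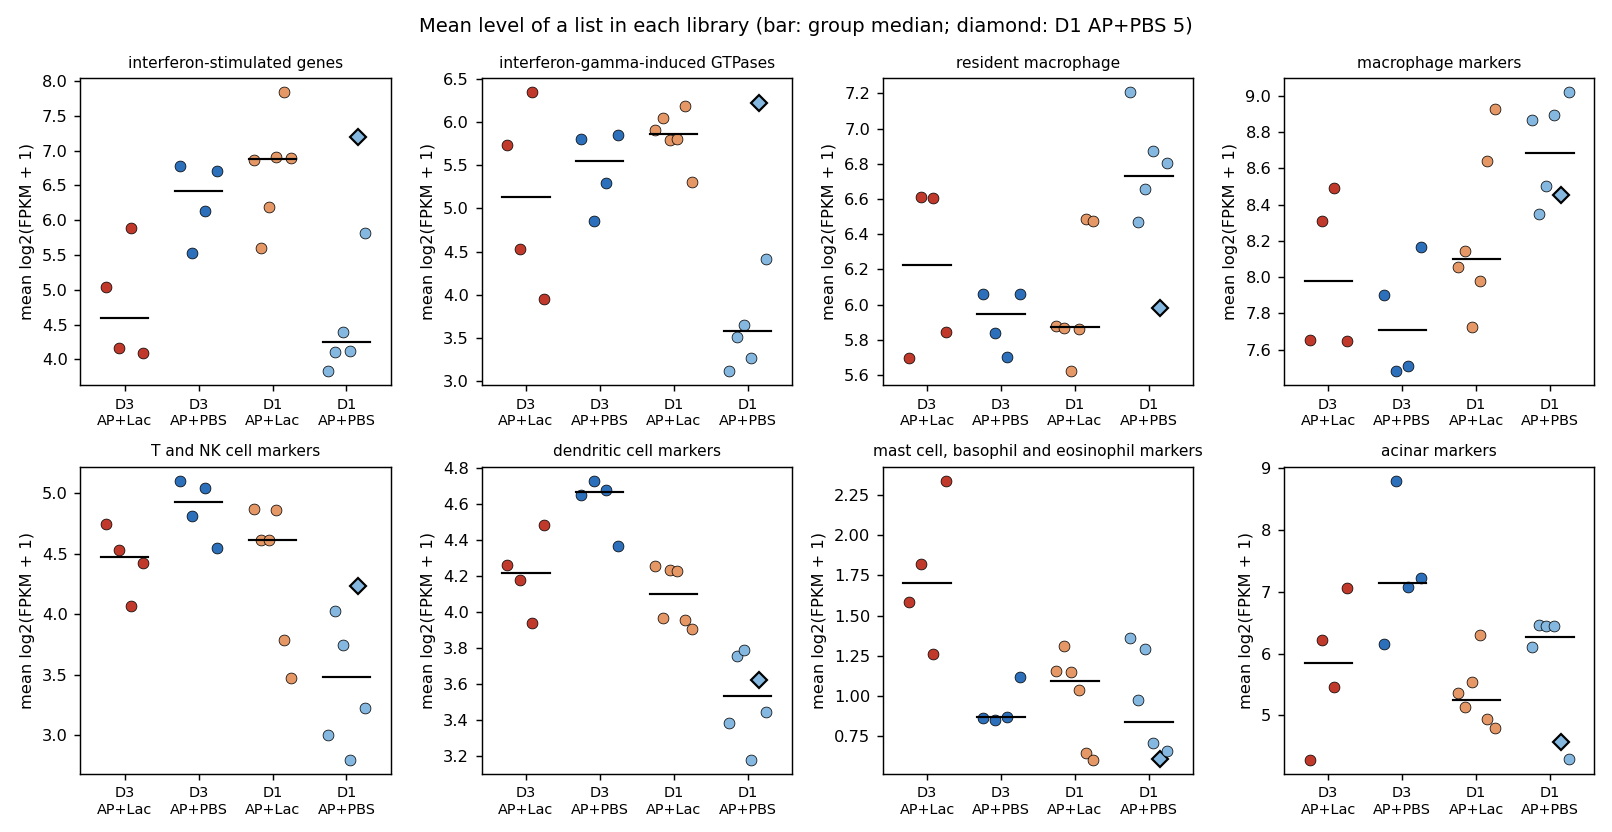
Mean log2(FPKM + 1) of 8 gene lists in each of the 20 libraries by group, with a bar at the group median and a diamond for D1 AP+PBS 5. For the interferon-stimulated list the medians are 4.60 in D3 AP+Lac, 6.42 in D3 AP+PBS, 6.88 in D1 AP+Lac and 4.25 in D1 AP+PBS, and dendritic cell markers have their highest median in D3 AP+PBS and their lowest in D1 AP+PBS.

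Genes of resident macrophages, scavenging and complement were among those with positive day differences. Of 24 resident macrophage genes tested, 6 were called positive, where 4.76% of all genes were, and none negative. Their list median was 0.88, with lactate effects of 0.24 at day 3 and -0.62 at day 1. The dendritic cell marker covariate moved this median to -0.18 with 0 members called, and the macrophage marker covariate moved it to 0.35 with 2 called positive and 1 negative.

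Stab1, the scavenger receptor stabilin-1, had 49.9, 113, 117 and 85.9 FPKM in D3 AP+Lac libraries. The D3 AP+PBS libraries had 54.0, 42.3, 59.0 and 38.2 FPKM. D1 AP+Lac libraries ran from 102 to 237 FPKM (median 139) and D1 AP+PBS libraries from 124 to 567 FPKM (median 334). Only D3 AP+Lac 1 reached into the range of the D3 AP+PBS libraries, and at day 1 the groups overlapped through D1 AP+PBS 5. The day difference was 1.98 (SE 0.43, adjusted p = 0.00806), from a day 3 effect of 0.85 (adjusted p = 0.187) and a day 1 effect of -1.13 (adjusted p = 0.0144). NC libraries had 194 to 330 FPKM of Stab1 and D0 libraries 131 to 165 FPKM.

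F13a1, the catalytic subunit of coagulation factor XIII, had 100, 163, 183 and 98.6 FPKM in D3 AP+Lac libraries and 88.0, 75.8, 86.4 and 83.5 FPKM in D3 AP+PBS libraries, with no overlap. At day 1 it ran from 94.6 to 163 FPKM in AP+Lac libraries (median 136) and from 139 to 412 FPKM in AP+PBS libraries (median 252). The day difference was 1.59 (SE 0.34, adjusted p = 0.00794). Mrc1, the mannose receptor CD206, had 84.5, 172, 202 and 107 FPKM in D3 AP+Lac libraries and 96.0, 90.6, 82.5 and 99.2 FPKM in D3 AP+PBS libraries. D1 AP+Lac libraries ran from 82.5 to 161 FPKM (median 127) and D1 AP+PBS libraries from 128 to 342 FPKM (median 221). Mrc1 groups overlapped on both days. Its day difference of 1.37 (SE 0.41, adjusted p = 0.0328) lost its call in 9 of the 20 fits that left out 1 library, with an adjusted p of up to 0.0799. The libraries were D3 AP+Lac 2 and 3, D3 AP+PBS 1, 2 and 3, D1 AP+Lac 3 and 4, and D1 AP+PBS 1 and 4. With the dendritic cell marker covariate, Mrc1 was at -0.0064 (adjusted p = 0.995).

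The lineage receptors Csf1r (1.09, SE 0.24, adjusted p = 0.00895) and Adgre1, which encodes F4/80 (1.22, SE 0.32, adjusted p = 0.0173), were positive too. Adgre1 was not called without D3 AP+Lac 2 (1.09, adjusted p = 0.0517). Of 12 macrophage markers, 4 were called positive, with a median of 0.87. With the dendritic cell marker covariate that median was -0.33 and 0 were called (2 past an unadjusted 0.05). The mean of these markers was 7.65 to 8.49 in D3 AP+Lac libraries, 7.48 to 8.16 in D3 AP+PBS, 7.73 to 8.93 in D1 AP+Lac and 8.35 to 9.02 in D1 AP+PBS. Gas6, a bridge between dying cells and phagocytes, was at 1.38, Ninj1, a membrane-rupture protein, at 1.09 and Lrp1, an endocytic receptor, at 1.15. The scavenger and efferocytosis list had 4 of 18 members called, Stab1, Gas6, Mrc1 and Lrp1, and a median of 0.53. Of 16 complement genes, with a median of 0.66, 5 were called positive, among them C5ar1 (the C5a receptor, 1.29), Cfp (properdin, 1.01) and C1qc (a C1q chain, 1.18). The list was split, with 11 positive and 5 negative day differences, the lowest at -2.30 and not called. Leaving out 1 library moved the count of positive complement calls to between 1 and 9, the lowest without D3 AP+Lac 2 and the highest without D1 AP+Lac 6, and with the dendritic cell marker covariate 0 were called (1 past an unadjusted 0.05) at a median of -0.05. Without the libraries numbered 5 and 6 of day 1, 9 complement genes were called positive and 3 negative. Over all 11960 genes, that fit called 1590 positive and 1818 negative. C5ar1 was not called without D3 AP+Lac 2 (1.13, adjusted p = 0.0651). The lysosomal genes Npc1 (0.93), Man2b1 (0.65) and Gusb (0.64) were called among 33 tested, with a median of 0.39. Of 15 genes of iron and heme handling, with a median of 0.49, Blvrb, a biliverdin reductase (1.49), and Slc11a1, a metal transporter of the phagosome (1.00), were called. For the lysosomal and the iron lists the called share was near the 10.7% of all genes called. Over all genes tested, 4.76% were called positive. Gdf15, a stress-induced cytokine, had 1.55, 7.89, 3.68 and 6.54 FPKM in D3 AP+Lac libraries and 1.90, 2.39, 3.30 and 4.78 FPKM in D3 AP+PBS libraries. It ran from 1.52 to 2.96 FPKM in D1 AP+Lac libraries and from 2.97 to 23.4 FPKM in D1 AP+PBS libraries. Day 3 groups overlapped, day 1 groups touched without overlapping at 2.96 and 2.97 FPKM, and the day difference was 2.04 (SE 0.51, adjusted p = 0.0139).

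**Figure D4:**
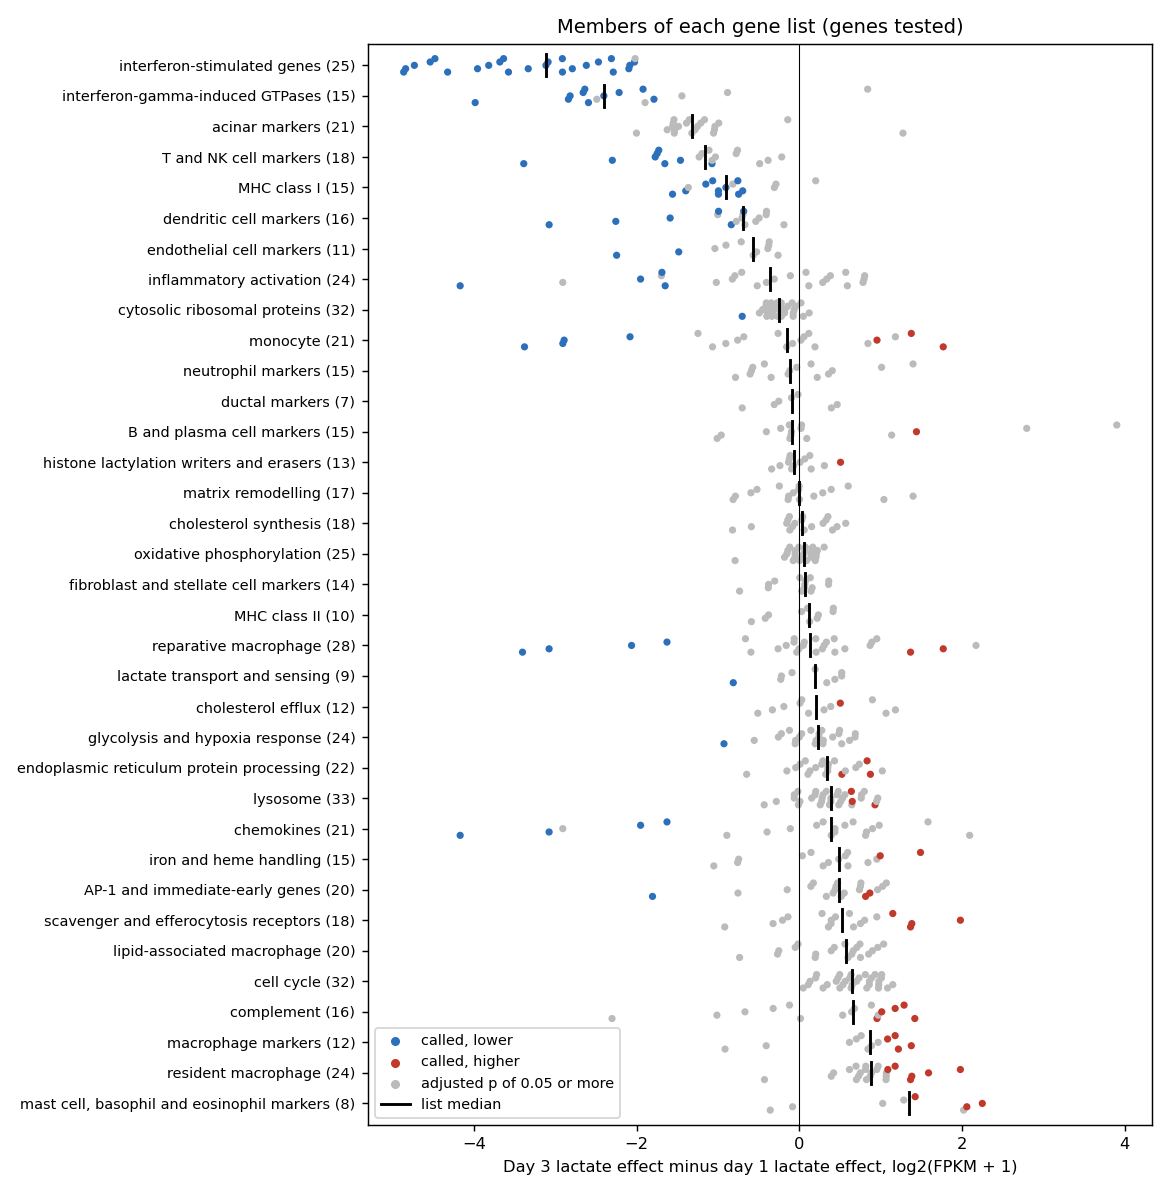
Day difference of each tested member of the gene lists with at least 5 members tested, on the log2(FPKM + 1) scale, with lists ordered by their median (black bar) and the number tested in parentheses. Blue points were called negative, red points were called positive and grey points did not pass an adjusted p of 0.05, and interferon-stimulated genes lie lowest with a median of -3.12.

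Among the called genes with a mean of at least 5 FPKM in 1 of the 4 groups, predicted gene models left out, the 2 highest day differences belonged to genes of mast cells. Cpa3, the mast cell carboxypeptidase, had 6.31, 7.74, 4.42 and 27.3 FPKM in D3 AP+Lac libraries and 0.446, 0.40, 0.975 and 2.22 FPKM in D3 AP+PBS libraries. In D1 AP+Lac libraries it ran from 0.663 to 4.01 FPKM (median 3.03) and in D1 AP+PBS libraries from 1.02 to 5.07 FPKM (median 1.46). Day 3 groups were apart, while day 1 groups covered nearly the same range. The day difference of 2.25 (SE 0.54, adjusted p = 0.0119) was made of a day 3 effect of 2.39 (adjusted p = 0.0141) beside a day 1 effect of 0.14 (adjusted p = 0.853). Tpsb2, a mast cell tryptase (2.06), and Fcer1a, a chain of the IgE receptor (1.43), were called with it, 3 of 8 markers of mast cells, basophils and eosinophils tested, with a median of 1.36. Over all genes tested, 4.76% were called positive. The expression filter left out some low markers of this list. With no filter, 13 were tested, 1 was called positive and 5 had a negative day difference, at a median of 0.42. That fit called 345 of 25301 genes positive. Fcer1a averaged 3.33 FPKM in D3 AP+Lac, 0.24 in D3 AP+PBS, 0.55 in D1 AP+Lac and 0.41 in D1 AP+PBS libraries. Without D3 AP+Lac 4, whose Cpa3 level was the highest, the day difference of Cpa3 was 1.75 (adjusted p = 0.0262) and Fcer1a was not called (1.00, adjusted p = 0.0543). Fcer1a was not called without D1 AP+PBS 1 either (1.25, adjusted p = 0.0508). Tpsb2 was not called without D3 AP+Lac 4 (1.74, adjusted p = 0.0571), D3 AP+Lac 2 or D3 AP+PBS 1.

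Some plasma cell genes had positive day differences as well, though not all of them were called. Jchain, which joins the chains of secreted antibodies, had 609, 1264, 331 and 1039 FPKM in D3 AP+Lac libraries and 41.0, 164, 197 and 31.1 FPKM in D3 AP+PBS libraries. Its D1 AP+Lac libraries ran from 10.9 to 231 FPKM (median 69.2) and its D1 AP+PBS libraries from 9.84 to 540 FPKM (median 226). The day 3 groups did not overlap, and the day difference of 3.90 (SE 1.34) did not pass the test (adjusted p = 0.060). Jchain was called without any one of D1 AP+Lac 2, D1 AP+Lac 3, D1 AP+PBS 5, D1 AP+PBS 6 or D3 AP+PBS 3, with values of 4.28 to 4.55 (adjusted p from 0.0103 to 0.0466). Sdc1, the plasma cell surface proteoglycan CD138, had 12.5, 14.2, 6.13 and 17.2 FPKM in D3 AP+Lac libraries and 2.69, 5.06, 4.96 and 1.59 FPKM in D3 AP+PBS libraries. Its D1 AP+Lac libraries ran from 1.22 to 5.30 FPKM and its D1 AP+PBS libraries from 0.864 to 8.87 FPKM, so Sdc1 was apart at day 3 and overlapped at day 1. Sdc1 (2.03) and Tnfrsf17, the plasma cell receptor BCMA (1.44), were called. The list of B and plasma cell markers had 1 of 15 members called positive, where 4.76% of all genes were, and none negative. Of its members, 8 had a negative and 7 a positive day difference, with a median of -0.10. Its mean level was 4.84 to 6.12 in D3 AP+Lac libraries, 4.67 to 5.41 in D3 AP+PBS, 3.32 to 5.63 in D1 AP+Lac and 3.42 to 5.46 in D1 AP+PBS. Among the other called genes with the highest day differences at that level were Nxpe5 (1.97), Endou (1.95), Creb3l2, a transcription factor of the endoplasmic reticulum (1.74), Gna12, a G protein subunit (1.57), Tram2 (1.53), Abcc3, an export pump (1.51), and Tspan4, a tetraspanin (1.48). The share of mast cell and plasma cell RNA in these differences was not tested.

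Genes of lactate handling were called in about the share of all genes tested, 1 of 9 for transport and sensing and 1 of 13 for histone lactylation, where 10.7% of all genes were. Ldha, a lactate dehydrogenase subunit, had 130, 86.8, 88.5 and 94.2 FPKM in D3 AP+Lac libraries and 58.5, 82.5, 74.0 and 82.5 FPKM in D3 AP+PBS libraries, ranges that did not overlap. At day 1 it ran from 60.4 to 125 FPKM in AP+Lac libraries and from 63.1 to 81.5 FPKM in AP+PBS libraries, and the day difference was 0.20 (SE 0.24, adjusted p = 0.644). The lactate transporters Slc16a1 (-0.22) and Slc16a3 (0.52) did not pass the test, and Hcar1, a lactate receptor, was below the expression filter. Of 9 genes of lactate transport and sensing, Gpr132, a receptor reported to sense lactate in macrophages, was called at -0.81 (SE 0.24, adjusted p = 0.0345), and the list median was 0.20. The call of Gpr132 was lost in 10 of the 20 fits that left out 1 library, which were D3 AP+Lac 2 and 4, D3 AP+PBS 2 and 3, D1 AP+Lac 1, 3 and 4, and D1 AP+PBS 1, 4 and 6. Of 13 writers and erasers of histone lactylation, Sirt2, a deacylase, was called at 0.51, and the list median was -0.07.

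Arg1, the arginase used as a marker of reparative macrophages, had 100, 69.2, 120 and 4.88 FPKM in D3 AP+Lac libraries and 30.2, 5.58, 4.93 and 20.4 FPKM in D3 AP+PBS libraries. The first 3 D3 AP+Lac libraries were above the D3 AP+PBS libraries and the fourth was below them. At day 1 it ran from 8.10 to 33.0 FPKM in AP+Lac libraries and from 14.0 to 44.3 FPKM in AP+PBS libraries. The day difference of 2.17 (SE 0.97) did not pass the test (adjusted p = 0.147). Without D3 AP+Lac 4 it was 3.18 (adjusted p = 0.0181). Retnla (0.05) and Chil3 (-0.26), further markers of alternative activation, had adjusted p of 0.961 and 0.777. None of Cd163 (0.95), Lyve1 (0.83), Timd4 (0.39), Igf1 (0.87), Vegfa (0.21), Tgfb1 (0.33), Il10 (0.89), Trem2 (1.04), Spp1 (-0.25) or Mki67 (1.15) was called, nor was Prss2 (-1.05).

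Several further lists held few or no calls, where 10.7% of all genes tested were called. No gene was called among 32 cell cycle genes, 20 lipid-associated macrophage genes, 25 genes of oxidative phosphorylation, 18 of cholesterol synthesis, 17 of matrix remodelling, 21 acinar markers, 14 fibroblast markers and 15 neutrophil markers. An unadjusted 0.05 was passed by 4 of the cell cycle genes, 7 of the lipid-associated genes, 1 of the oxidative phosphorylation genes, 4 of the matrix genes, 5 of the acinar and 2 of the neutrophil markers, and by 0 of the others. The list medians were 0.58 for the lipid-associated genes, 0.05 for oxidative phosphorylation, 0.04 for cholesterol synthesis, -0.01 for matrix remodelling, 0.07 for fibroblast and -0.12 for neutrophil markers. The cell cycle list was positive in 32 of 32 members with a median of 0.64. The acinar list had a median of -1.32, and its mean level was 4.28 to 7.07 in D3 AP+Lac libraries, 6.16 to 8.79 in D3 AP+PBS, 4.80 to 6.30 in D1 AP+Lac and 4.29 to 6.46 in D1 AP+PBS. None of 7 ductal markers was called (median -0.10, 0 at an unadjusted 0.05), nor was the 1 islet marker tested (-1.47).

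Of 24 genes of glycolysis and the hypoxia response, Pfkfb3, a regulator of glycolysis, was called at -0.93, and the list median was 0.22. Over all genes tested, 10.7% were called. Of 32 ribosomal protein genes, Rps24 was called at -0.70, with a median of -0.25. Of 12 genes of cholesterol efflux, Lpcat3, a phospholipid-remodelling enzyme, was called at 0.50, with a median of 0.21. Only 2 of 11 erythroid and platelet markers passed the expression filter, and Hbb-bt, a hemoglobin chain, was called at 1.11. Its means were all under 1 FPKM, at 0.87 in D3 AP+Lac, 0.14 in D3 AP+PBS, 0.38 in D1 AP+Lac and 0.85 in D1 AP+PBS libraries. Of 22 genes of protein processing in the endoplasmic reticulum, with a median of 0.34, Xbp1 (0.83), Edem1 (0.52) and Pdia4 (0.87) were positive. Of 20 AP-1 and immediate-early genes, with a median of 0.49, Fos (0.82) and Jun (0.87) were positive and Nr4a3 (-1.81) negative.

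The number of called genes depended on single libraries. Leaving out 1 library at a time gave 622 to 2262 called genes, the lowest without D3 AP+Lac 2 and the highest without D1 AP+PBS 5, and 24 or 25 of the 25 interferon-stimulated genes in each of the 20 fits. Other lists lost more, and without D3 AP+Lac 2 the called members were 3 of the GTPases, 3 of the MHC class I genes, 2 of the resident macrophage genes, 1 of the complement genes and 1 of the macrophage markers. Without the libraries numbered 5 and 6 of both day 1 groups, 3408 genes were called, 1276 of the 1280 among them, and the median of the interferon-stimulated list was -3.89. Resident macrophage genes then had 17 of 24 members called positive, where 1590 of all 11960 genes were, with a median of 1.30. With only the 20 libraries in the fit, 546 genes were called. The called members were then 24 of the interferon-stimulated genes, 2 of the GTPases, 6 of the MHC class I genes, 3 of the resident macrophage genes, 1 of the complement genes, 1 of the macrophage markers, 4 of the T and NK cell markers, 5 of the dendritic cell markers and 1 of the mast cell markers.

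Calls of single genes near the threshold were often lost when 1 library was left out. Of the 20 such fits, 14 lost C1qc, 14 Rps24, 13 Pdia4, 12 Endou, 12 Lrp1 and 11 Fos. Another 8 fits lost Ccl17, 8 Gusb, 6 Lpcat3, 6 Man2b1, 4 Cd14, 4 Cfp and 3 Jun, in each case with D3 AP+Lac 2 among the libraries left out. Tram2 was lost without D3 AP+Lac 1, D3 AP+PBS 2 or D1 AP+PBS 1, and Sdc1 without D3 AP+Lac 2 or D3 AP+PBS 4. The fit without D3 AP+Lac 2 was the only one of the 20 to lose Gas6, Igtp, Ninj1, Socs1 and Tap2. In the other direction, Igf1 was called without D3 AP+Lac 1 or D1 AP+PBS 5, Tgfb1 without D3 AP+PBS 3 or D1 AP+Lac 6, and Trem2 without D3 AP+Lac 1 or D1 AP+Lac 6.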

How the data were processed

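RNA was extracted with the RNeasy Micro Kit and libraries were made from 10 ng of total RNA with the VAHTS Universal V6 kit, per the labels' protocols. The authors deposited 1 table of FPKM for 25301 genes in 28 libraries, and the name of the table gives the unit. Tools named are fastp and R 3.2.0, per the submitters' processing notes. For the aligner, counting program, strand setting and genome build, nothing is given in the sources used here. Nonzero FPKM values were whole multiples of the value of 1 fragment in 100.0% of cases (tolerance 0.0001), which gave the library depths.

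FPKM were tested as log2(FPKM + 1), a scale that understates the change of low genes, with limma 3.58.1 in R 4.3.3 (1 mean for each of 6 groups over all 28 libraries, trended and robust variance, two-sided, Benjamini-Hochberg adjustment over 11960 genes, threshold 0.05). Genes needed 1 FPKM or more in 3 libraries or more. The comparison, its 25 state and pathway lists and 12 cell type lists were chosen with earlier results of these data known, so no list has a test of its own, and lists share members. 8 of 693 list entries were not found by symbol. Genes named in the text are the 15 highest and 15 lowest called day differences with a mean of at least 5 FPKM in 1 of the 4 groups, called genes among the 4 members of each list with the smallest p, and a fixed set of genes. Ifi204 was named after its value was seen. Some list members are not reported here. The tests were checked on simulated data. Python 3.11.15, numpy 2.4.6, pandas 2.3.3, scipy 1.17.1 and matplotlib 3.10.9 made the tables and figures. Promoters came from the RefSeq table of build GRCm38.p6 and were matched by gene ID. Libraries 5 and 6 of day 1 were left out, and dendritic cell markers used as a covariate, as alternatives chosen after seeing the data.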

Additional observations from a re-analysis of the deposited data

Results flagged for a closer look

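The lactate effect differed between day 3 and day 1, by a test of the difference itself, for 1280 genes (limma, adjusted p under 0.05). Among the called genes with the highest day differences, at a mean of at least 5 FPKM in 1 of the 4 groups, were Cpa3 (2.25), Tpsb2 (2.06), Gdf15 (2.04), Sdc1 (2.03), Stab1 (1.98), Nxpe5 (1.97), Endou (1.95), Fn1 (1.77), Creb3l2 (1.74), F13a1 (1.59), Gna12 (1.57), Tram2 (1.53), Abcc3 (1.51), Blvrb (1.49) and Tspan4 (1.48), all on the log2(FPKM + 1) scale. Among those with the lowest day differences were Ly6i (-4.93), Isg15 (-4.87), Ifit3b (-4.84), Ifit3 (-4.73), Rsad2 (-4.54), Ifit2 (-4.48), Slfn4 (-4.45), Ifit1 (-4.32), Ifit1bl1 (-4.22), Cxcl10 (-4.17), Gbp10 (-4.08), Tgtp1 (-3.99), Irf7 (-3.96), Usp18 (-3.82) and Ifi213 (-3.70).

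A single library lay far from the others of its group, by Dixon's criterion, in 26 of 456 sets of values of the 114 named genes. Chance flags about 1 in 20 sets. D1 AP+PBS 5 was the highest of its group for Nos2 (2.56 FPKM), Il12b (3.98 FPKM), Ccl5 (603 FPKM), Pfkfb3 (47.5 FPKM), Nr4a3 (5.20 FPKM) and Kdr (7.19 FPKM). D1 AP+Lac 6 was apart for Gna12 (90.3 FPKM), Abcc3 (36.5 FPKM), Npc1 (37.5 FPKM), Rps24 (266 FPKM) and Lrp1 (107 FPKM). D1 AP+Lac 2 was the lowest of its group for Pfkfb3 (24.8 FPKM), Fscn1 (59.1 FPKM) and Ccr7 (79.1 FPKM). In the day 3 groups, D3 AP+PBS 1 was apart for Nr4a3 (4.61 FPKM), Fos (792 FPKM), Klre1 (10.2 FPKM) and Dpp4 (28.8 FPKM). D3 AP+PBS 2 was apart for Csf1r (221 FPKM), Npc1 (13.4 FPKM) and Hbb-bt (0.428 FPKM), and D3 AP+PBS 4 for Cd3e (31.3 FPKM), Ninj1 (65.9 FPKM) and Kdr (8.82 FPKM). D3 AP+Lac 1 was apart for Rps24 (268 FPKM) and D3 AP+Lac 2 for Ccl22 (10.3 FPKM).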

How the results depend on the processing

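The 1280 genes called for the day difference were 463 with a replicate block and 546 with only the 20 libraries in the fit. They were 2196 with the macrophage marker covariate, 55 with the dendritic cell marker covariate, 3684 with library quality weights and 3408 without the libraries numbered 5 and 6 of day 1. The share of positive calls was 44.5% and became 24.8% with the block and 57.0%, 69.2% and 92.7% with the lymphocyte, macrophage and dendritic cell covariates. The 1162 calls of day 1 became 616 with no filter, 471 with 20 libraries, 4591 with weights, 366 with the block, 344 with the macrophage covariate, 0 with the dendritic cell covariate (2657 genes at an unadjusted p under 0.05 by limma) and 3426 without libraries 5 and 6. The 45 calls of day 3 became 11 with a pseudocount of 0.1, 104 with no filter, 21 with a minimum of 5 FPKM, 213 after quantile normalization, 76 after median-ratio scaling, 0 with 20 libraries (1644 genes at an unadjusted p under 0.05 by limma), 470 with weights, 5 with the block and 579, 402, 1253 and 500 with the acinar, lymphocyte, macrophage and dendritic cell covariates. The cause of these shifts was not tested. Leaving out 1 library gave 622 to 2262 calls for the day difference, 191 to 2380 for day 1 and 0 to 163 for day 3 (0 without D3 AP+PBS 1, where 1692 genes had an unadjusted p under 0.05 by limma). The highest day 3 count, 163, was without D3 AP+Lac 3. The day difference moved by over 1.5 times without D1 AP+Lac 6 (2154), D1 AP+PBS 1 (746), D1 AP+PBS 4 (766), D1 AP+PBS 5 (2262), D3 AP+Lac 2 (622) or D3 AP+PBS 1 (799). Same-numbered deviations correlated between -0.53 and 0.61, so whether replicate numbers pair the libraries was not settled. Each block held 1 AP+Lac and 1 AP+PBS library of a day. The block therefore leaves each day difference unchanged by construction and says nothing of effect size. Under the block the called members were 24 of the interferon-stimulated genes, 3 of the GTPases, 5 of the MHC class I genes, 3 of the resident macrophage genes, 1 of the complement genes, 0 of the macrophage markers (9 at an unadjusted p under 0.05 by limma), 2 of the T and NK cell markers and 4 of the dendritic cell markers.

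With the dendritic cell covariate, which moved the median day difference of all genes by 0.21, the sign of these called genes changed: Mrc1 (-0.0064), Ninj1 (-0.16), Gpr132 (0.063), C5ar1 (-0.13), Itgam (-0.011) and Ccr7 (0.043). Genes with no call also changed sign under it, namely Arg1 (-0.79), Retnla (-0.35), Cd163 (-0.23), Il10 (-0.35), Ccr2 (-0.92), Lyve1 (-0.27), Trem2 (-0.073), Il1b (-0.13), Tnf (-0.071), Slc16a1 (1.09), Slc16a3 (-0.30), Prss2 (0.26) and Cd3e (1.82). The macrophage covariate, which moved that median by 0.11, turned Retnla (-0.32), Ccr2 (-0.42), Slc16a1 (0.64) and Cd3e (0.13). The acinar covariate turned Ccr2 (-0.22), Slc16a1 (0.046) and Prss2 (0.30), the lymphocyte covariate Ccr2 (-0.20) and Slc16a1 (0.19), and weights Retnla (-0.015) and Prss2 (0.022). Without day 1 libraries 5 and 6, Spp1 was at 0.26 and Il1b at -0.025. Leaving out 1 library turned genes with no call, with ranges of -0.14 to 0.18 for Ccr2, -0.61 to 0.037 for Chil3, -0.072 to 0.42 for Il1b, -1.40 to 0.022 for Nos2, -0.43 to 0.32 for Retnla and -0.54 to 0.062 for Spp1.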
